A study of Mus musculus with 24 samples.

Results

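Sterol synthesis genes and targets of the transcription factor SREBP2 were followed across the 3 arms of a mouse brain study through 7 genes: Insig1, Hmgcs1, Sqle, Idi1, Srebf2, Fdft1 and Msmo1. They are 7 of the 15232 genes in the deposited expression table, and all 7 passed the filter of a mean FPKM of at least 1. FPKM stands for fragments per kilobase of gene at a common library size, so that levels can be set side by side between genes as well as between libraries. The genes were selected on measured FPKM of these same libraries, because Insig1 was low in the trained, food-deprived animals. Their differences between trained and untrained libraries are therefore given as a description, with no test.

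Cells make cholesterol from acetyl-CoA through the mevalonate pathway and then through squalene and lanosterol. When membranes of the endoplasmic reticulum hold little sterol, the SREBP2 precursor, encoded by Srebf2, is carried to the Golgi and cut, and its released part switches on the genes of sterol synthesis and uptake. When sterol is plentiful, INSIG1 holds the precursor in place, and Insig1 is itself a target, so its transcript is widely read as a gauge of the pathway. The brain makes nearly all of its own cholesterol, in oligodendrocytes for myelin and in astrocytes and neurons for membranes and synapses.

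Bulk polyadenylated RNA was sequenced from 24 mice, with 1 library per animal, and the tissue was the anterior cingulate, part of the medial frontal cortex. The 3 arms held 8 animals each, 4 females and 4 males: untrained and labelled wild type (WT), untrained and labelled Thbs1/2 knockout (KO), and trained and labelled KO. Thbs1 and Thbs2 encode thrombospondins, matrix proteins that astrocytes secrete, and the labels give neither the strain nor the age of the mice, nor how the knockout was made. Training was carried out in a Skinner box under food deprivation, per the labels, and other animals fed freely, so training and food deprivation cannot be told apart. The 24 animals included no trained animals labelled WT, so training could be described within the KO label only.

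Both targeted genes went against the labels of genotype. Thbs1 was at 0.512 ± 0.147 FPKM (SD, n = 8 in each arm) in the libraries labelled WT, 3.68 ± 0.840 FPKM in untrained and 4.63 ± 0.690 FPKM in trained libraries labelled KO, and Thbs2 was at 2.02 ± 0.294, 3.51 ± 0.378 and 3.29 ± 0.227 FPKM. The genotype is therefore given throughout as a label, and each direction drawn between labels rests on it. All 8 trained animals had animal numbers over 1000 in the labels, as had 2 untrained males labelled KO and 1 untrained male labelled WT, so among females number and training cannot be told apart. Reads recovered from the FPKM values came to between 12343773 and 20414047 per library, except for male untrained library 3 labelled KO with 27233266. That library also had lower summed neuron markers (1991 FPKM, where the remaining 7 of its arm had 2992 to 3622), lower oligodendrocyte markers (724, where they had 1175 to 1348) and higher striatal markers (335, where they had 54.0 to 226). Its part in each result is given by leaving it out. Every marker of cortical tissue listed, for neurons, astrocytes, oligodendrocytes, microglia and endothelium, was detected in the arms, with 0 markers at 0 in every library.

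Upstream sequence is given for the 3 members on which the description turns: Insig1, which had the largest training difference, Hmgcs1, whose window alone held the full sterol element, and Srebf2, which encodes the factor itself. RefSeq windows of 250 bases before the annotated start (GRCm38.p6) were found for 5 of the 7 members, and those of Insig1 (chr5:28071162-28071411), Hmgcs1 (chr13:119690101-119690350) and Srebf2 (chr15:82147019-82147268), all on the plus strand, are printed 5′ to 3′. Capitals mark matches on either strand to CACNCCA, the core of the sterol regulatory element that SREBP2 binds, and to CCAAT, the box bound by NF-Y, a factor known to act beside SREBPs.
Insig1: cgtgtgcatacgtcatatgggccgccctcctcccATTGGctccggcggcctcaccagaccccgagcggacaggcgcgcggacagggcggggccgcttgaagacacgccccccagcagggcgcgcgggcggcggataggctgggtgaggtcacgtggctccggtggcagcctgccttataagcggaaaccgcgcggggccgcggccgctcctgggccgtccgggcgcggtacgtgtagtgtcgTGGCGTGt
Hmgcs1: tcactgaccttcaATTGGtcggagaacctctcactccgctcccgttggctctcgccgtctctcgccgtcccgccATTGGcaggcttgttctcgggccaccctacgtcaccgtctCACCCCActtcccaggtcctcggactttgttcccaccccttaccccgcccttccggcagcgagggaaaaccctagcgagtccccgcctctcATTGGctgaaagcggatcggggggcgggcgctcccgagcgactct
Srebf2: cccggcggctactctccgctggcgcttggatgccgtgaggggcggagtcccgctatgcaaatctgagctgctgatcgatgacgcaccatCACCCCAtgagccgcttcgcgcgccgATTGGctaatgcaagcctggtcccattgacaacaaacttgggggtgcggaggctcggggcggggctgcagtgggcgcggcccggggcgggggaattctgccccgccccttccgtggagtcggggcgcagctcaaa

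The full element TCACNCCAC was in 1 of the 5 member windows, that of Hmgcs1, where it lay 137 bases before the start, and in 1.05% of all 32851 windows of the same length. Its core CACNCCA, which the full element contains, was in 4 of the 5 windows, against 15.6% of all windows. CCAAT was in 5 of 5 (33.8% of all windows), and so was GGGCGG, the box of the general factor SP1 (32.7%). CACGTG, the E-box that SREBPs can also bind, was in 1 member window, that of Insig1 (6.02%). Both strands were searched for each motif, and a match is a match of letters, not a bound site. Among 17 windows of 14 other sterol synthesis genes, CACNCCA was in 1, CCAAT in 13, GGGCGG in 13 and CACGTG in 3. The Insig1 gene spans chr5:28071412-28078662 and overlaps the long noncoding gene Gm35223. Fdft1 (chr14:63145150-63181687) overlaps Ctsb, which is also in the table, and since the strand setting of the counting is not given in the sources used here, reads of overlapping genes cannot be told apart.

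Among the libraries labelled WT the 7 genes spanned a wide range of levels per length. Hmgcs1 was highest at 115 ± 17.9 FPKM (SD, n = 8), followed by Msmo1 at 60.2 ± 7.76, Srebf2 at 57.4 ± 5.50, Insig1 at 41.0 ± 6.23, Fdft1 at 38.7 ± 3.69, Sqle at 28.8 ± 3.27 and Idi1 at 6.17 ± 1.05. The mean ± SD of Msmo1 overlapped that of Srebf2, and that of Insig1 overlapped that of Fdft1, but levels were not tested between genes. In the trained libraries Insig1 stood below Fdft1, at 25.1 ± 2.71 FPKM against 34.4 ± 3.90, and close to Sqle at 23.3 ± 2.61. The values rested on 926 to 8871 reads per library for all but Idi1, which had 173 to 347 reads and a counting error of up to 7.60%. No molecular identifiers are mentioned in the protocols, so such errors cover counting only.

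**Figure D1:**
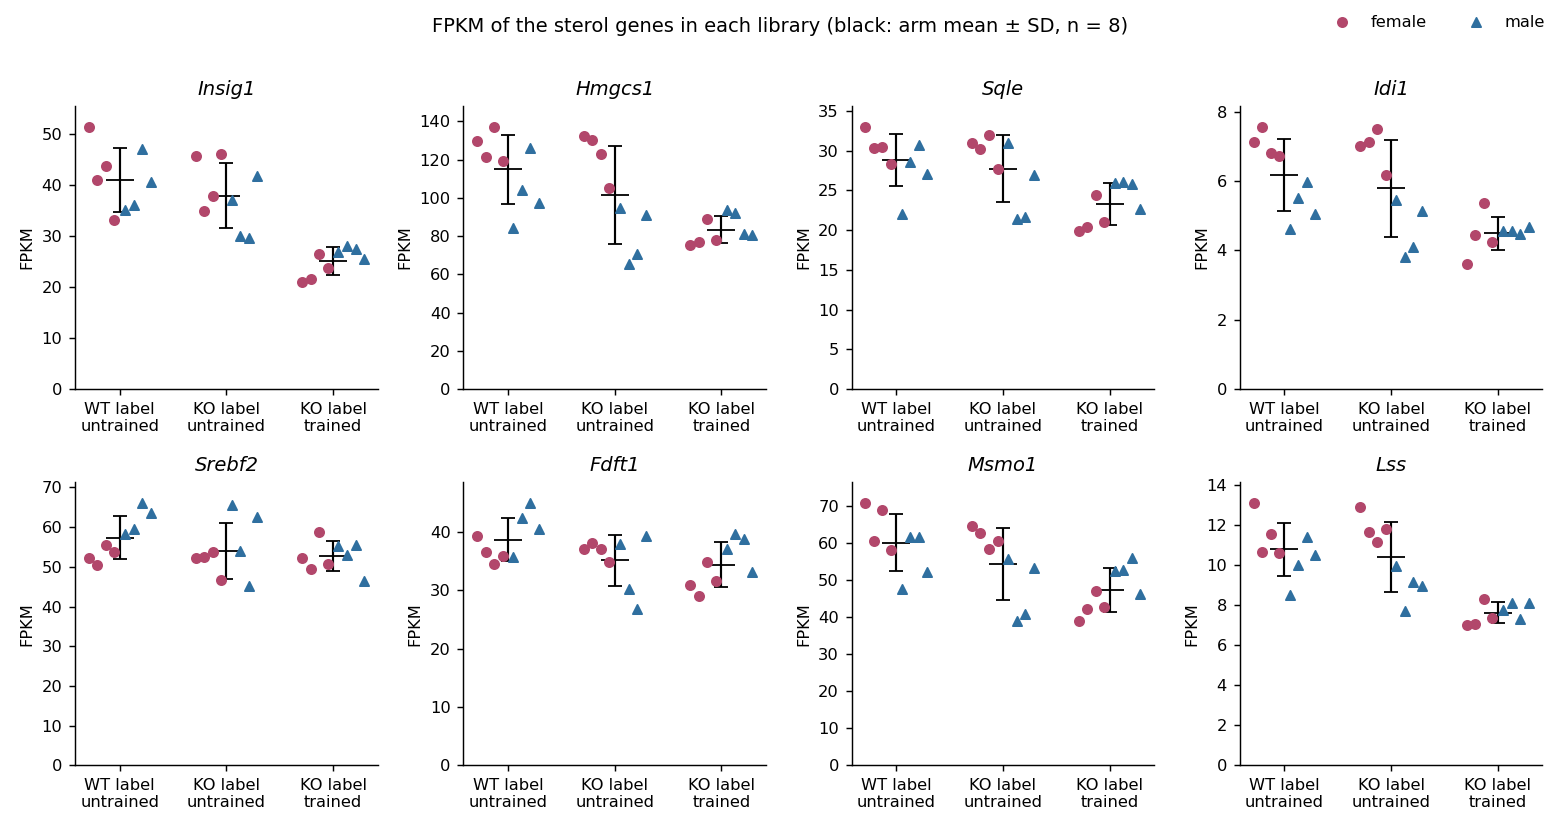
FPKM (vertical axes, from 0) of the 7 genes and of the lanosterol synthase gene Lss in each of the 24 libraries, by arm, with circles for females, triangles for males and black bars for the arm mean ± SD. The 8 trained Insig1 values lie between 20.9 and 28.1 FPKM, below all 16 untrained values, while those of Srebf2 and Fdft1 overlap between arms.

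Insig1, the sterol-dependent brake of the pathway, was at 33.1 to 51.3 FPKM in the untrained libraries labelled WT (median 40.8), at 29.6 to 46.1 in the untrained arm labelled KO (median 37.4) and at 20.9 to 28.1 in the trained ones (median 25.97). All 8 trained libraries lay below all 16 untrained ones. The trained mean was 0.664 of that of the untrained libraries labelled KO, a difference of -0.56 on the log2(FPKM + 1) scale, the 7th lowest of 12572 genes. Only 0.294% of tested genes were lower in the trained libraries with no overlap of the arms. This is the contrast for which Insig1 was picked, so nothing is read from its rank. In bulk tissue, fewer cells of a type and less RNA per cell cannot be told apart.

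Hmgcs1, the synthase that makes HMG-CoA at the entry to the mevalonate pathway, was at 84.4 to 137 FPKM in the libraries labelled WT (median 120.3), at 65.5 to 132 in the untrained arm labelled KO (median 99.9) and at 75.4 to 93.7 in the trained ones (median 80.8). All 8 trained values lay below the mean of the untrained libraries labelled KO, but none lay below its lowest, since male libraries 2 and 3 of that arm were at 65.5 and 70.9. Idi1, the isomerase that turns isopentenyl into dimethylallyl diphosphate, was at 4.61 to 7.56, 3.82 to 7.503 and 3.62 to 5.35 FPKM in the same order of arms, with medians of 6.34, 5.81 and 4.52. A single trained library lay below all untrained values labelled KO, and the other trained libraries were within their range. The differences between trained and untrained libraries labelled KO were -0.25 for Hmgcs1 and -0.28 for Idi1.

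Fdft1, the squalene synthase, was at 34.4 to 44.9 FPKM (median 37.9) in the libraries labelled WT, 26.8 to 39.2 (median 37.0) in the untrained arm labelled KO and 29.0 to 39.7 (median 34.0) in the trained ones, so that the arms overlapped. Sqle, the squalene epoxidase and a slow step of the pathway, was at 22.0 to 33.0 (median 29.4), 21.3 to 31.9 (median 29.0) and 19.9 to 26.1 FPKM (median 23.5). Of the 8 trained Sqle values, 3 lay below all untrained values of either label. Msmo1, a methylsterol oxidase that removes methyl groups after lanosterol, was at 47.6 to 70.8 (median 61.1), 39.0 to 64.7 (median 57.1) and 39.0 to 56.0 FPKM (median 46.7), and 0 trained values lay below all untrained libraries labelled KO. On the log2 scale the differences between trained and untrained libraries labelled KO were -0.03 for Fdft1, -0.24 for Sqle and -0.19 for Msmo1.

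Srebf2 itself was at 50.3 to 66.0 FPKM in the libraries labelled WT (median 56.9), 45.1 to 65.6 in the untrained arm labelled KO (median 53.2) and 46.5 to 58.7 in the trained ones (median 52.5). The arms overlapped, and the training difference was -0.03. The differences of all 7 genes were below 0, as were those of 6004 of 12572 tested genes. The median of the 7 was -0.24, against 0.01 over all tested genes. Against the untrained libraries labelled WT, which differ from the trained ones in both labels, the same 7 genes stood at -0.68 (Insig1), -0.45 (Hmgcs1), -0.38 (Idi1), -0.34 (Msmo1), -0.29 (Sqle), -0.17 (Fdft1) and -0.12 (Srebf2). Both descriptions use the same trained libraries. The sign of Srebf2 and Fdft1 in training rested on single libraries, since with 1 library left out they stood as high as 0.0095 and 0.0031. In the contrast with the libraries labelled WT, 1.46% of tested genes were lower in the trained libraries with no overlap, Insig1 among them, and 1.65% were higher.

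Summed oligodendrocyte markers ran from 724 to 1348 FPKM in the untrained and from 1083 to 1811 in the trained libraries labelled KO, astrocyte markers from 934 to 1205 and from 868 to 1125, and neuron markers from 1991 to 3622 and from 2875 to 3354. Within females the neuron sums were lower in the trained libraries, at 2875 to 3144 FPKM against 3229 to 3622 untrained. In males they overlapped, at 3045 to 3354 trained and 1991 to 3359 untrained. Of the 27 markers of these 3 lists, 0 passed for training in limma. Of the 10 oligodendrocyte markers, however, 8 differences were above 0, with a median of 0.23 and 5 at an unadjusted p under 0.05, against 23.8% of all tested genes. Of 8 astrocyte markers 6 were below 0 (median -0.10), and all 4 endothelial markers were above 0 (median 0.15), 1 of them past the threshold. Of all 12572 tested genes, 6568 differences were above 0 and 6004 below, and 5.67% passed. The part of cell makeup in the member differences was not tested. Leaving out male untrained library 3 labelled KO gave training differences of -0.61 for Insig1, -0.30 for Hmgcs1, -0.28 for Sqle, -0.32 for Idi1, -0.24 for Msmo1, -0.07 for Srebf2 and -0.09 for Fdft1. With animal number over 1000 as a covariate, which only the males inform, Insig1 was at -0.38, Hmgcs1 at -0.01, Sqle at -0.14, Idi1 at -0.11, Srebf2 at -0.17, Fdft1 at 0.05 and Msmo1 at 0.02.

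Among the males over 1000, the 4 trained animals were at 25.6 to 28.1 FPKM of Insig1, against 29.96 and 37.0 in the 2 untrained males labelled KO and 35.1 in the untrained male labelled WT. The Insig1 values thus did not overlap within this number range. Insig1 was picked on the training contrast, and the share of all tested genes that separate here was not counted. Nothing is read from this separation. Hmgcs1 did overlap, with 80.6 to 93.7 FPKM in the trained males, 65.5 and 94.6 in the untrained males labelled KO and 84.4 in the male labelled WT. Sqle was at 22.7 to 26.1 FPKM in these trained males, against 21.3 and 31.0 in the untrained males labelled KO. With 4 and 2 animals these values are a description.

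The question whether the rest of the sterol pathway moved with the 7 genes was put to genes outside the selection, fitted with limma over all 12572 tested genes. In trained against untrained libraries labelled KO, 5.67% of tested genes had an adjusted p under 0.05, with 3.5% higher and 2.17% lower in the trained libraries. The 440 higher and 273 lower genes became 235 and 385 with libraries scaled to an equal sum, and 374 and 383 in limma-voom. Of 17 other enzymes of mevalonate and sterol synthesis, all tested, 2 fell and 1 rose. Lss, the lanosterol synthase that closes the rings, fell by 0.39 (SE 0.0743, limma adjusted p = 0.00763). Its mean level was 10.4 ± 1.75 FPKM (SD, n = 8) untrained and 7.62 ± 0.511 trained. The trained Lss values ran from 7.01 to 8.28 FPKM and the untrained ones labelled KO from 7.71 to 12.9, so the arms overlapped. Dhcr7, which makes cholesterol from 7-dehydrocholesterol, fell by 0.21 (limma adjusted p = 0.0388). Ebp, the sterol isomerase, rose by 0.31 (SE 0.0531, limma adjusted p = 0.00339), and its mean level was 7.96 ± 0.602 FPKM untrained and 10.1 ± 0.866 trained. The differences of 14 of the 17 were below 0, as were those of 6004 of 12572 tested genes. The median of the 17 was -0.10, against 0.01 over all tested genes. Of the 17, 7 had an unadjusted p under 0.05, as 23.8% of all tested genes had. Without male untrained library 3 labelled KO, 5 of the 17 passed, 4 lower and 1 higher, against 6.78% of all tested genes in that fit.

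The 4 lists outside sterol synthesis held 7 calls among 51 tested genes, 6 lower and 1 higher, where 5.67% of all tested genes were called. These lists were chosen with results of these data known. Of the 11 tested genes of sterol uptake and transport, 2 fell and 1 rose. Among them, Lrp1, a large lipoprotein receptor, fell by 0.24, and Lipa, the lysosomal acid lipase that frees cholesterol from its esters, rose by 0.31 (limma adjusted p = 0.00413). Of 11 tested genes of sterol sensing and SREBP processing, 1 fell, Srebf1, which encodes the SREBP of fatty acid synthesis, by 0.41 (limma adjusted p = 0.0380). Scap, the escort of the precursor, was at -0.03 and Insig2, the relative of Insig1, at 0.10, and neither passed.

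Of 14 tested genes of sterol efflux, esterification and oxysterols, 1 fell, Abca1, the transporter that loads cholesterol onto apolipoproteins, by 0.47 (limma adjusted p = 0.0351). Of 15 genes of fatty acid synthesis and desaturation, 2 fell: Gpam, an acyltransferase of glycerolipid synthesis, by 0.38 (limma adjusted p = 0.0216), and Fasn, the fatty acid synthase, by 0.24 (limma adjusted p = 0.0142). Of these 15, the differences of 13 were below 0, as were those of 6004 of 12572 tested genes. The median of the 15 was -0.12. The 10 genes called in the 5 lists had the same sign with libraries scaled to an equal sum. Among them, Lss, Ebp, Lipa and Fasn passed with each of the 16 libraries left out in turn. Gpam lost its call without trained female library 1, Dhcr7 and Abca1 lost theirs in 9 of the 16 fits, Srebf1 in 11 and Lrp1 in 13, with an adjusted p of at most 0.0862. With animal number as a covariate 0 of the 10 passed, as 0 of 12572 genes did, and Lss was at -0.23, Ebp at 0.25 and Lipa at 0.24. With the replicate block, which used 14 of the 16 libraries and left 0.231% of genes called, 0 of the 10 passed, and Lss was at -0.36 (limma adjusted p = 0.162). In the same 14 libraries with no block 1.97% of genes were called, and Lss passed (limma adjusted p = 0.0384).

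**Figure D2:**
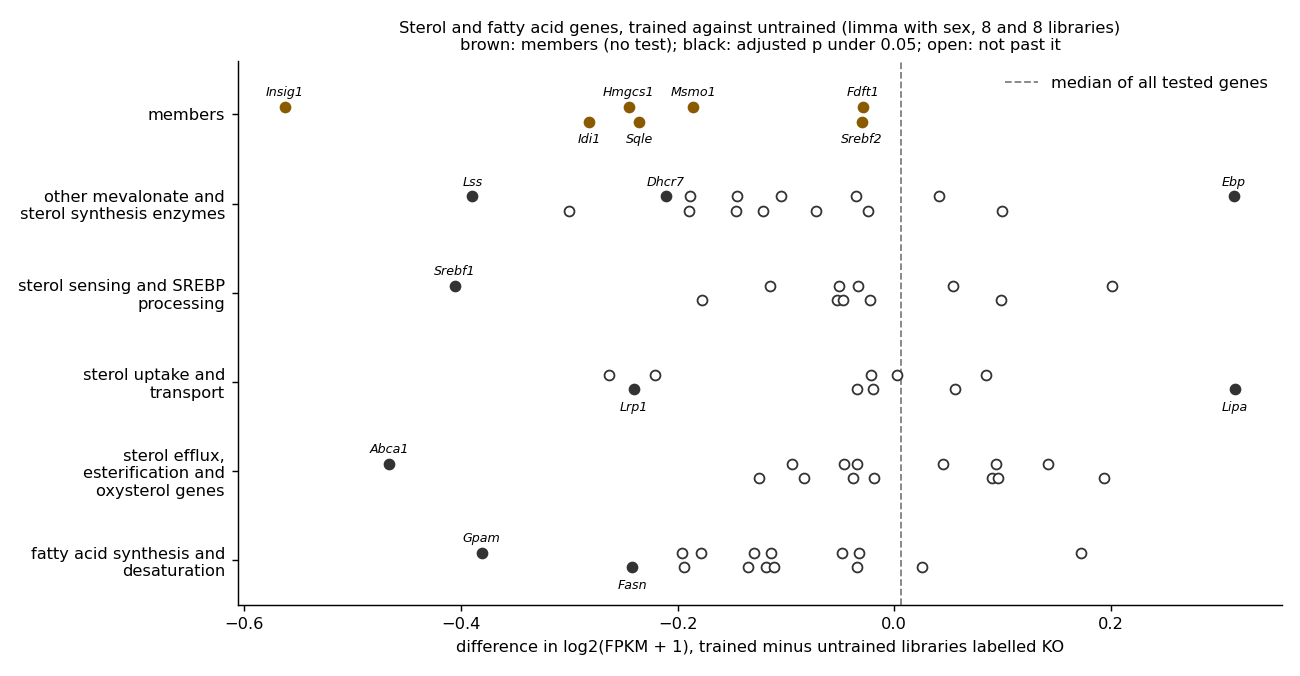
Difference in log2(FPKM + 1) between trained and untrained libraries labelled KO (horizontal axis, 8 libraries each) for the 7 genes in brown, which carry no test, and for other genes of 5 lists, filled black where the limma adjusted p is under 0.05 and open otherwise. The dashed line is the median of all tested genes at 0.01. Of the genes drawn, Insig1 at -0.56 lies farthest to the left, and Ebp and Lipa, both at 0.31, lie farthest to the right.

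The genotype label could be tested in the untrained arms, though the libraries labelled KO are those used in the description of training. All 7 differences were below 0 in the libraries labelled KO, as were those of 6375 of 12572 tested genes. The 7 genes covary between libraries, so their signs are not independent. In limma 0 of 7 genes passed, against 1.42% of all tested genes in either direction and 0.819% lower. The values were -0.20 for Hmgcs1 (SE 0.0938, limma adjusted p = 0.374), -0.15 for Msmo1, -0.14 for Fdft1, -0.11 for Insig1 (SE 0.0980, limma adjusted p = 0.684), -0.09 for Idi1 and Srebf2 and -0.06 for Sqle. Hmgcs1 alone had an unadjusted p under 0.05, as 12.7% of all tested genes had, and limma-voom on the recovered reads also called 0. For 0 of the 7 genes did the untrained arms separate, where 0.278% of tested genes were lower and 0.223% higher with no overlap. Insig1 ran from 33.1 to 51.3 FPKM labelled WT and from 29.6 to 46.1 labelled KO. Of the 17 other enzymes 0 passed, 2 had an unadjusted p under 0.05 (12.7% of all tested genes), and the median difference was -0.02. In a genotype-by-sex interaction fitted with limma, 0 of 7 genes passed, 0 of 7 had an unadjusted p under 0.05, and 0% of all tested genes passed.

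Sex was balanced in each arm and was tested over all 24 libraries with the arm as a covariate. Hmgcs1 and Idi1 were lower in males, by -0.27 (SE 0.0876, limma adjusted p = 0.0250) and -0.27 (SE 0.0714, limma adjusted p = 0.00694). These are 2 of 7 genes, where 28.6% of all tested genes passed in either direction and 13.8% were lower in males. Hmgcs1 was at 127 ± 8.19 FPKM (SD, n = 4) in females and 103 ± 17.3 in males labelled WT, 123 ± 12.3 and 80.6 ± 14.5 in untrained libraries labelled KO, and 79.8 ± 6.18 and 86.8 ± 6.98 in the trained ones. Idi1 was at 7.05 ± 0.3803 and 5.29 ± 0.582 FPKM labelled WT, 6.95 ± 0.566 and 4.62 ± 0.793 in the untrained libraries labelled KO, and 4.41 ± 0.718 and 4.57 ± 0.0852 in the trained ones. The male means were thus lower in both untrained arms and not in the trained one. Insig1 was at -0.04 between the sexes (limma adjusted p = 0.760).

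The sex difference had a rank correlation of 0.70 with the GC content of the transcripts over 12118 tested genes (genes are not independent replicates). Idi1 (41.9% GC) and Hmgcs1 (43.1%) had the lowest GC content of the 7 genes and Srebf2 (57.9%), which was at 0.11 between the sexes, the highest. When every library was corrected for GC content and transcript length, 5.89% of all tested genes and 0 of 7 genes passed for sex, with Hmgcs1 at -0.18 (limma adjusted p = 0.211) and Idi1 at -0.17 (limma adjusted p = 0.124), and 2 had an unadjusted p under 0.05, as 20.5% of all tested genes had. Without male untrained library 3 labelled KO, Srebf2 passed as well, higher in males by 0.14 (limma adjusted p = 0.0175), and so it did without either of 2 trained libraries, female 3 and male 4. In these fits 33%, 30.9% and 33.7% of all tested genes passed, in the same order. Of the 17 other enzymes, Sc5d, Ggps1, Cyp51 and Lss were lower in males and Dhcr7 was higher, by between -0.19 and 0.14. These 5 of 17 are near the share of all tested genes called for sex, 28.6%. After the correction 0 of these 5 passed, with limma adjusted p from 0.134 (Cyp51) to 0.69 (Ggps1, which then stood at 0.028). Over all genes 1857 were higher and 1738 lower in males, and 972 and 2599 with an equal sum per library.

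Training is next described within each sex, and among females animal number and training cannot be told apart. Insig1 was at 45.6, 34.8, 37.9 and 46.1 FPKM in the 4 untrained females labelled KO and at 20.9, 21.7, 26.4 and 23.8 in the 4 trained females. In males it was at 37.0, 29.96, 29.6 and 41.8 untrained and at 27.0, 28.1, 27.5 and 25.6 trained. Neither sex overlapped, and the gap was narrower in males. The share of all tested genes that separate between 4 and 4 libraries was not counted. Overlap within a sex is therefore given as a description only, for Insig1 and for the genes below. Hmgcs1 was at 132, 130.4, 123 and 105 FPKM in the untrained and at 75.4, 76.7, 88.9 and 78.2 in the trained females, with no overlap, whereas in males the untrained values of 94.6, 65.5, 70.9 and 91.3 and the trained ones of 93.7, 91.9, 80.9 and 80.6 overlapped. Msmo1 was at 64.7, 62.9, 58.4 and 60.7 in the untrained and at 39.0, 42.3, 47.1 and 42.9 in the trained females, and in males at 55.7, 39.0, 41.0 and 53.4 against 52.6, 52.8, 56.0 and 46.4 FPKM.

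Within females, training differences were -0.79 for Insig1, -0.61 for Hmgcs1, -0.56 for Idi1, -0.52 for Msmo1, -0.48 for Sqle, -0.22 for Fdft1 and 0.04 for Srebf2. Within males they were -0.33 for Insig1 and between -0.10 and 0.16 for the other 6. The female difference lay below the male one for 6 of the 7 genes and for 15 of the 17 other enzymes, against 48.2% of all tested genes. Of the other enzymes, 14 were below 0 in females and 6 in males, against 47.8% and 47.4% of all tested genes. The difference between the sexes, tested as an interaction in limma, was 0.73 for Hmgcs1 (SE 0.157, limma adjusted p = 0.0673), 0.66 for Msmo1 (SE 0.143, limma adjusted p = 0.0673), 0.56 for Idi1, 0.49 for Sqle, 0.46 for Insig1 (limma adjusted p = 0.181), 0.37 for Fdft1 and -0.14 for Srebf2. It passed for 0 of 7 genes, where 0.00795% of tested genes passed, and 6 of 7 had an unadjusted p under 0.05, as 1952 of 12572 genes did. Of the 17 other enzymes 0 passed and 9 had an unadjusted p under 0.05. No sex difference of these genes in training passed the threshold.

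**Figure D3:**
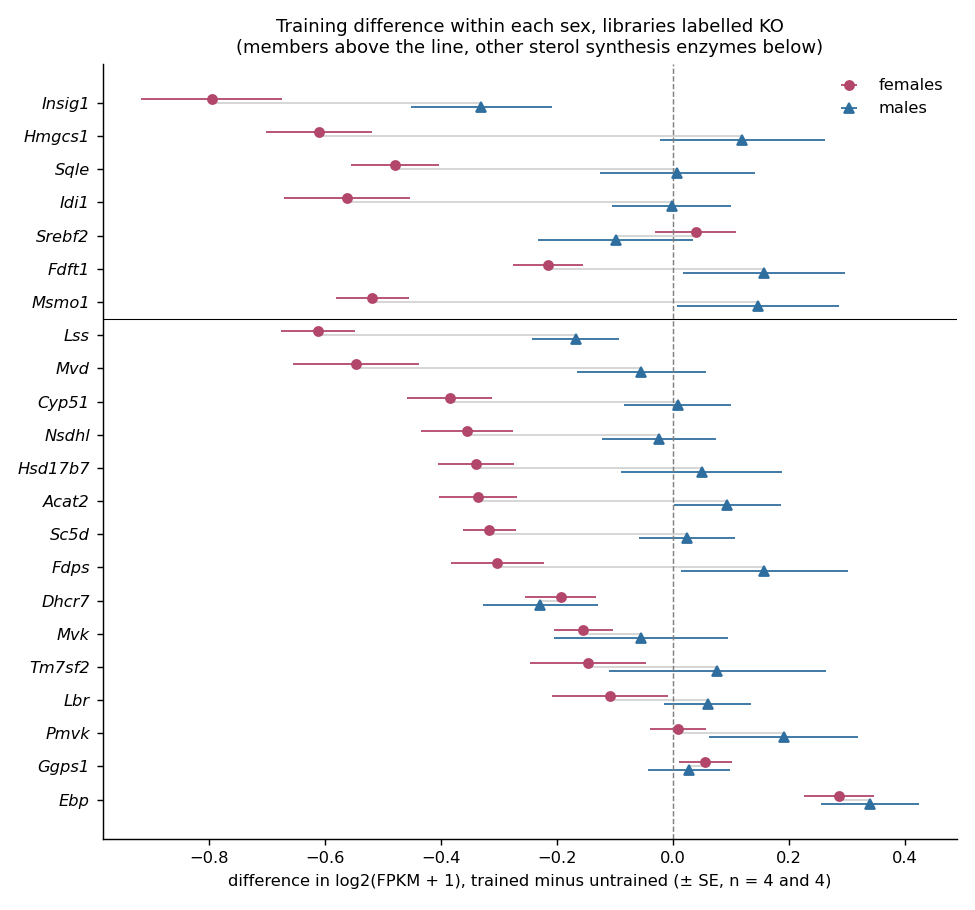
Training difference in log2(FPKM + 1) (horizontal axis) within females (circles) and males (triangles) of the libraries labelled KO, 4 trained against 4 untrained each, with bars of ± SE, for the 7 genes above the line and other sterol synthesis enzymes below it. Female values lie to the left of the male ones for 6 of the 7 genes and for most of the enzymes drawn, and Ebp lies right of 0 in both sexes.

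Other measures moved with this interaction. Its rank correlation with GC content over 12118 genes was -0.44. After the GC and length correction it stood at 0.60 for Hmgcs1, 0.58 for Msmo1, 0.48 for Sqle, 0.44 for Insig1 and Fdft1, 0.43 for Idi1 and 0.0031 for Srebf2, and 0 passed. Summed striatal markers were at 54.0 to 63.9 FPKM in the untrained females labelled KO, 54.6 to 335 in the untrained males, 47.3 to 99.98 in the trained females and 65.4 to 163 in the trained males. Neuron marker genes had a median interaction of 0.43, against -0.01 over all tested genes, but the list was split. Of the 9 neuron markers 6 were above 0 and 3 below, from -0.46 to 0.53. In limma 1 of them had an unadjusted p under 0.05, as 15.5% of all tested genes had. The median was -0.89 for striatal and 0.07 for oligodendrocyte markers. The part of tissue makeup was not tested. Without male untrained library 3 labelled KO, Hmgcs1 (0.67, limma adjusted p = 0.0405) and Msmo1 (0.60, limma adjusted p = 0.0402) passed, 2 of 7 genes, against 1.54% of all tested genes. Of the untrained animals labelled KO, 0 of 4 females and 2 of 4 males had numbers over 1000, as all 8 trained ones had. With the number as a covariate the interaction was 0.71 for Hmgcs1, 0.66 for Msmo1 and 0.43 for Insig1, and 0 of 7 genes passed.

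The genes were next compared from library to library within arms, a measure that the choice of the genes did not use. The mean of each of the 6 arm-by-sex cells was taken out of log2(FPKM + 1), and the residuals of the 24 libraries were correlated. All 21 pairs of the 7 genes were positive, with Pearson's r from 0.44 to 0.89 (median 0.73) and Spearman's rho from 0.43 to 0.93 (median 0.74). A member and any other tested gene had a median r of 0.02 and a 95th percentile of 0.48. Of the 21 pairs, 20 had an adjusted p under 0.05 for r and 18 for rho (100000 permutations within cells, Benjamini-Hochberg adjustment over the 21 pairs). With the 2 libraries farthest from the median of the first gene left out, r ran from 0.52 to 0.87. Without male untrained library 3 labelled KO the median r was 0.74.

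Sqle was the closest to the rest, with a median r of 0.86, and its pairs with Msmo1 and Hmgcs1 were both at 0.89 (permutation p = 4e-05 and 5e-05, adjusted p = 0.000525 for both, rho 0.88 and 0.87). Fdft1 had a median r of 0.80, Hmgcs1 0.79, Msmo1 0.77, Idi1 0.72 and Srebf2 0.70. Insig1 stood lowest at 0.59, from 0.44 with Srebf2 to 0.71 with Msmo1. The pair of Insig1 and Srebf2 did not pass (permutation p = 0.0717, adjusted p = 0.0717, rho 0.45). Insig1, with the largest training difference, thus had the lowest median correlation of the 7, a difference that was not tested.

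**Figure D4:**
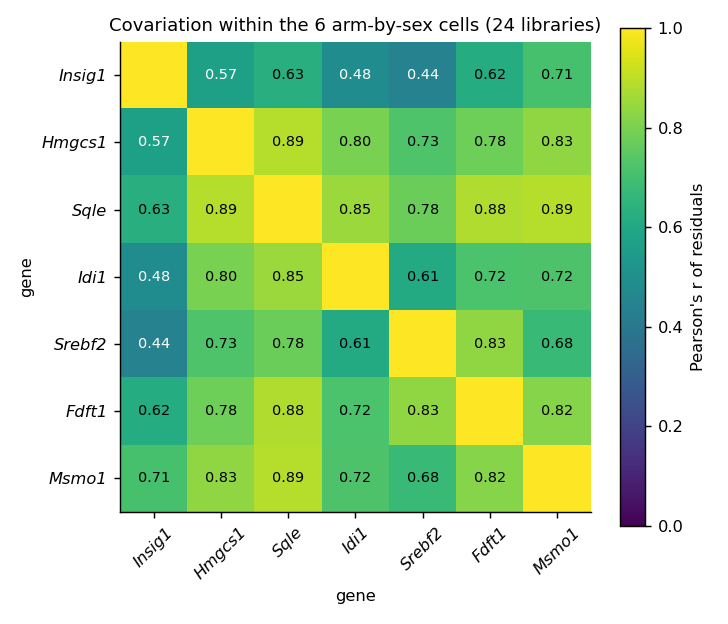
Pearson's r between the residuals of each pair of the 7 genes over 24 libraries, with the means of the 6 arm-by-sex cells taken out (colour scale from 0 to 1). Sqle has values of 0.63 to 0.89 with the other genes and Insig1 values of 0.44 to 0.71.

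The genes outside the selection that were most like the 7 in this respect were ranked by the r of their residuals with the mean residual z-score of the 7 genes over 24 libraries. The first 10 of 12565 genes included Fdps (0.87), Tuba1a (0.81), C2cd4c (0.81), Reep1 (0.80), Nsdhl (0.80), Trappc1 (0.78), Ric8 (0.78) and St3gal5 (0.75). Fdps and Nsdhl are enzymes of sterol synthesis. Of the 17 other enzymes 8 were among the first 100 genes, which make up 0.796% of those ranked, and their median r was 0.60. Ebp, which rose with training, had an r of 0.13 and Dhcr7 of 0.32. Of the 11 genes of uptake and transport 1 was among the first 100, Stard4, a sterol carrier (0.69). Of the sensing, efflux and fatty acid lists 0 genes were.

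Cell type markers differed in their likeness to the 7 genes. Oligodendrocyte markers had a median r of 0.32 and neuron markers of 0.41, astrocyte markers of -0.25 and endothelial markers of -0.32, against 0.02 over all ranked genes. Microglia markers stood at -0.0013, oligodendrocyte precursor markers at -0.05 and striatal markers at 0.07. Within the neuron list, Gad1 (-0.59) and Gad2 (-0.42), which make GABA in inhibitory neurons, had the opposite sign to the other 7 genes. The part of tissue makeup in the covariation was not tested. The order of the leading genes rested on a few libraries: without male untrained library 2 or 3 labelled KO, 4 and 5 of the first 10 genes were still among the first 10, and 7 of the 17 enzymes were among the first 100 in both cases. Across all libraries left out in turn, 6 to 9 of the enzymes were.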

How the data were processed

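Per the submitters' processing notes, the authors' processing named FastQC 0.11.7, Trimmomatic 0.38, STAR 2.5.3a, featureCounts and Subread 1.6.3, and the build mm10. The authors deposited FPKM per gene for 15232 genes in 24 libraries, although the headers call them counts, and their annotation, strand setting and gene filter are not given in the sources used here. The kit marks strand, per the labels' protocols.

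The 7 genes and the gene lists were chosen with earlier results of these data known. Values were fitted as log2(FPKM + 1) with limma 3.58.1 in R 4.3.3 (eBayes with trend, Benjamini-Hochberg adjustment, threshold 0.05) over the 12572 genes whose mean FPKM was 1 or more, using the arms compared and sex as a covariate. Sex was fitted over all 24 libraries with the arm. Log2 differences on this scale understate the change of low genes. Whole reads were recovered from the FPKM steps for 15230 genes, with 99.99% of values whole within 0.01 read. Both steps were checked on simulated data. P-values from limma set differences against the spread between animals, and those of the covariation come from permutations within arm-by-sex cells.

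Genes named are the 7, list genes with an adjusted p under 0.05, the 10 genes most like the 7, and Thbs1 and Thbs2. Not every sex call is named, and some genes that meet these rules are not reported here. Other settings were a pseudocount of 0.1, filters, scalings, array weights, a replicate block, limma-voom on the recovered reads, each library left out and animal number. The GC and length correction in 20 bins was chosen after seeing the data. Of the list genes 1 of sensing and 1 of efflux were not found by symbol, and 23 genes carry a date as symbol. Windows and positions are from RefSeq on GRCm38.p6.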

Additional observations from a re-analysis of the deposited data

How the results depend on the processing

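The GC and length correction, and animal number as a covariate for sex, genotype label and the interactions, were chosen after seeing the data. In training, 3 of 17 other enzymes passed (5.67% of all genes), against 9 with array weights (16.1%) and 0 with the replicate block, with animal number as a covariate, in only the males over 1000, and with the GC and length correction plus that covariate (at an unadjusted p under 0.05: 4, 1, 1 and 1). The shares of all tested genes at an unadjusted p under 0.05 were 16.1%, 10.4%, 10.5% and 9.54% in the same order. Leaving out each library gave 2 to 5, where 2.62% to 7.52% of all tested genes passed. Without male untrained library 3 labelled KO it was 5 (6.78% of all genes). For sex, 2 of the 7 genes passed (28.6% of all genes), against 1 with the covariate (21.5%), 0 after the GC and length correction (5.89%) and 0 with both (3.87%). For training by sex, 0 of 7 passed (0.00795% of all genes), against 4 with array weights (9% of all genes), 3 where all 24 libraries shared one fit (1.93%) and 0 to 2 with each library left out. For the genotype label 0 of 7 passed in every setting run. Why these counts differ was not tested.

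In training, 9 member values turned sign, 3 of them, for Srebf2 and Fdft1, with 1 library left out. The others were Hmgcs1 (0.14), Msmo1 (0.15) and Fdft1 (0.13) in only the males over 1000, Msmo1 (0.017) and Fdft1 (0.047) with the covariate, and Fdft1 (0.036) with both that covariate and the GC correction. The sign also turned for Sqle by genotype label with array weights (0.0047), and for Srebf2 in training by sex after the GC and length correction (0.0031, and 0.050 with the covariate). For sex it turned for Insig1 with the covariate (0.022, and 0.010 with the GC correction too) and Msmo1 with both (0.0040). After the GC and length correction, and with both, it also turned for Ggps1 (0.028 and 0.0059), Scap (-0.020 and -0.016) and Mbtps2 (0.035 and 0.039), and with both for Rnf139 (0.020) and Nr1h2 (-0.0047). Insig1 in training kept its sign in every setting run, from -0.66 to -0.29. It was picked on this contrast, so nothing is read from the stable sign.

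Replicate numbers name different animals, and the residuals of libraries that share a number correlated by 0.02 (genotype label) and -0.07 (training) on average. The replicate block called 29 of all tested genes in training, against 713 in the fit without it, but it used only 14 of the 16 libraries, since 1 trained female carries no number. Those 14 libraries without the block, an alternative chosen after seeing the data, gave 248. Scaling to an equal sum gave 620, 235 higher and 385 lower, against 440 and 273. Depth limits Idi1 most, and 4 libraries per sex in an arm limit the interactions.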

Other observations

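Genes of sterol efflux and of fatty acid synthesis were also compared by genotype label. Of 14 tested genes of efflux, esterification and oxysterols, 11 differences were above 0 in the untrained libraries labelled KO, with a median of 0.06, and 1 passed. Of all 12572 tested genes 6197 were above 0, and 1.42% passed in either direction and 0.605% as higher. Abcg1, a transporter that moves cholesterol to high-density lipoprotein, rose by 0.16 (SE 0.0343, limma adjusted p = 0.0265), its mean level being 15.2 ± 1.06 FPKM (SD, n = 8) labelled WT and 17.1 ± 1.15 labelled KO. It passed in 8 of the 16 fits that left out 1 library each, and its adjusted p was at most 0.0678 in the others. Of 15 genes of fatty acid synthesis, 12 differences were above 0 and 0 passed, with 4 at an unadjusted p under 0.05, as 12.7% of all tested genes were. In 51 arm groups of 8 libraries, for the 7 genes and the 10 list genes called in training, 0 single values stood apart from the rest of their group.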
